A study of Rattus norvegicus with 28 samples.

Results

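Cullins and F-box proteins are the scaffolds and the substrate receptors of cullin-RING ubiquitin ligases. The array table was searched for probe sets whose gene symbol starts with Cul, Fbxl, Fbxo or Fbxw followed by a number, where the last letter of an F-box name gives the repeat beside the F-box (leucine-rich for Fbxl, WD40 for Fbxw, other or none for Fbxo). Fbxo30 and Fbxo32 (atrogin-1) were left out of the set by this definition. It held 61 of 26208 probe sets, for 60 genes: 7 cullins, 16 Fbxl, 30 Fbxo and 8 Fbxw probe sets. RefSeq lists 58 of the symbols as such and 2 as synonyms, Fbxo18 for the DNA helicase gene Fbh1 and Fbxo23 for the tetraspanin gene Tspan17.

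The data are Rat Gene 1.0 ST arrays of proximal gastrocnemius, a hind limb muscle, from 28 female Sprague-Dawley rats, 1 array per rat, which the study describes as young adults. A control group of 5 sham-operated rats was anaesthetised with isoflurane, breathed spontaneously and was not paralysed, and was killed within hours. The other 23 rats were sedated with isoflurane, mechanically ventilated and paralysed with the snake toxin α-cobrotoxin, which blocks acetylcholine receptors on the muscle fibre, for 6 hours to 4 days (0.25-4d, n = 13), 5 to 8 days (5-8d, n = 4) or 9 to 14 days (9-14d, n = 6). Paralysis, ventilation, sedation and unloading thus came together in every treated rat, and their parts cannot be told apart. The source label of the controls also mentions the blocker and ventilation, and the sample type and the study's methods, which call them controls, were followed.

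In a ligase of the SCF type, Cul1 holds the RING protein Rbx1 at one end and, through the adaptor Skp1, an exchangeable F-box protein at the other, and the F-box protein chooses the substrate to be ubiquitinated. Other cullins carry other receptors: BTB proteins on Cul3, Ddb1 with its partners on Cul4a and Cul4b, and proteins with a SOCS box or the VHL protein, through elongins, on Cul5 and Cul2. Attachment of Nedd8 switches a cullin on, the COP9 signalosome removes it, and Cand1 allows receptors to be exchanged. In skeletal muscle the best known F-box protein is atrogin-1, which rises in many kinds of atrophy.

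All values below are log2 changes with their standard error (SE), from differences between group means: a log2 change of 1 is a 2-fold rise and -1 a 2-fold fall. A probe set passed at an adjusted p below 0.05 in the limma model of all 28 arrays. Values of single rats were not used here, so the spread between rats is given as the within-group SD that the model's statistics imply, which ran from 0.122 for Fbxl22 to 0.453 for Fbxo4, with a median of 0.203 over the set and 0.203 over all probe sets. RNA came from whole muscle, so fewer cells of a type and less RNA per cell cannot be told apart.

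Few of these genes changed in the first days, more of them had changed at 5-8d and 9-14d, and nearly all changes were smaller than 2-fold. At 0.25-4d 2 of 61 probe sets passed, both up, or 3.28% beside 3.54% of all probe sets (1.49% up and 2.06% down). At 5-8d 14 passed, 8 up and 6 down, or 23.0% beside 26.2% (14.9% up and 11.4% down). At 9-14d 18 passed, 7 up and 11 down, or 29.5% beside 35.5% (17.3% up and 18.2% down). In each comparison the share was near or below that of the array as a whole, so as a class these genes did not stand out. With a 2-fold minimum as well, only Fbxo4 at 5-8d passed, 1 of 61 probe sets beside 5.21% of all, while 0 of 61 passed at 0.25-4d (beside 0.549%) and at 9-14d (beside 5.12%). The median change of the set was -0.02, 0.02 and 0.00 at the 3 durations, beside -0.01, -0.04 and -0.07 over all probe sets. Each comparison was also centred on the median of all probe sets. The split at 9-14d then turned from 7 up and 11 down to 15 up and 9 down. Centring shifts every probe set of the array, and the shares of all probe sets after centring are not given here. The centred counts, here and below, thus do not show a lean of the set.

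In all, 25 of the 61 probe sets passed in at least 1 comparison with control, beside 41.4% of all probe sets, and 36 in none, and 0 passed in opposite directions at 2 durations. The largest change was at least 0.5 in size for 14 probe sets, at least 0.8 for 4 (Fbxo4, Cul4b, Fbxo9 and Fbxl4) and at least 1.0 for 1. By family, the calls are given beside the shares of all probe sets that rose (14.9% and 17.3% at 5-8d and 9-14d) or fell (11.4% and 18.2%). Of 16 Fbxl probe sets 0 rose and 3 fell at 5-8d, and 0 rose and 5 fell at 9-14d. Of the falls at 5-8d 1 belongs to a probe set that measures mainly the neighbouring gene Lrrc17, so that 2 (Fbxl4 and Fbxl17) remain. After centring 3 Fbxl probe sets rose at 9-14d, among them Fbxl6 and Fbxl8, and 3 fell. Of 8 Fbxw probe sets 0 fell against control and 2 rose at either later duration, 3 at 9-14d after centring. The 30 Fbxo probe sets went both ways, with 4 up and 3 down at 5-8d and 4 up and 5 down at 9-14d, or 7 up and 5 down at 9-14d after centring. The difference between families was not tested.

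**Figure D1:**
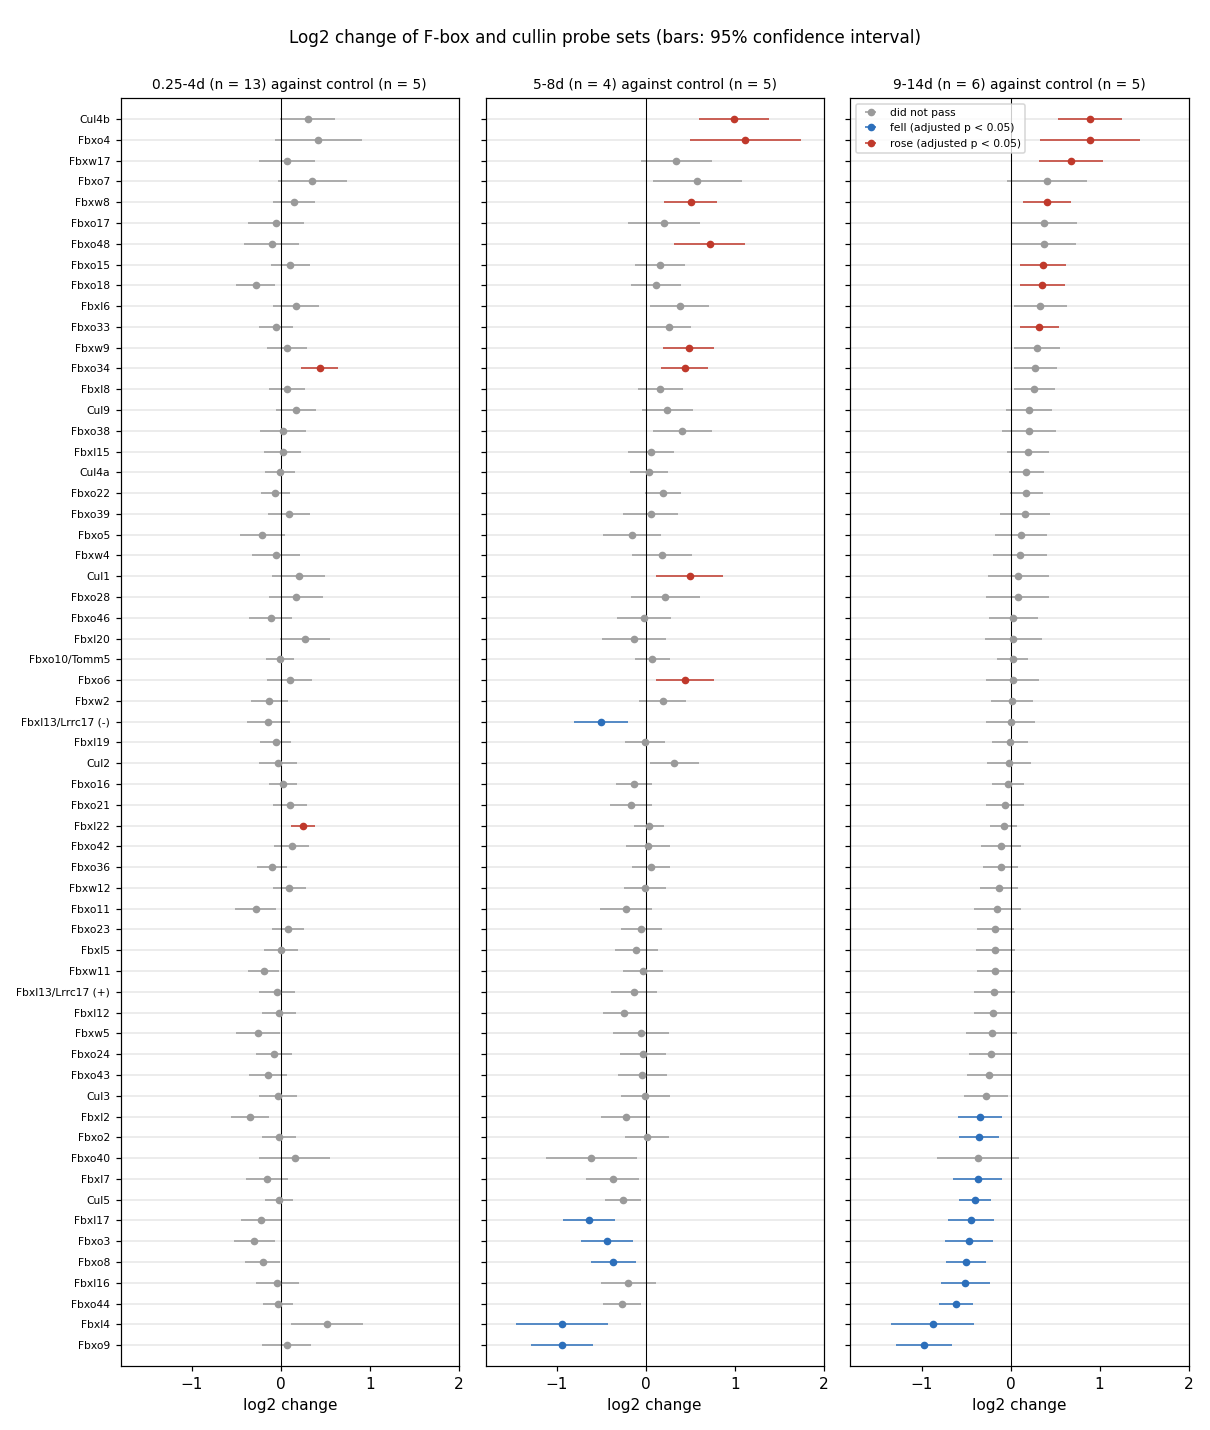
Log2 change of 60 of the 61 probe sets against control (x axis), with a panel for each duration, ordered by the change at 9-14d, with 95% confidence intervals as bars; red points rose and blue points fell at an adjusted p below 0.05, and grey points did not pass. In 46 of 60 rows every point lies within 0.5 of 0, and Cul4b, Fbxo4, Fbxl4 and Fbxo9 form the ends of the later panels.

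The cullins, the scaffolds, changed one by one. Cul4b, on chromosome X (6800502 to 6837627, plus strand, RGSC 3.4), changed most: its log2 change was 0.30 (SE 0.15) at 0.25-4d, 0.99 (SE 0.19, adjusted p = 0.000315) at 5-8d and 0.89 (SE 0.17, adjusted p = 0.000231) at 9-14d. It rose 1.99-fold and 1.86-fold at the later durations, whereas its close paralogue Cul4a gave -0.01, 0.04 and 0.18 and did not pass at any. Cul1, the scaffold that F-box proteins use, rose at 5-8d by 0.49 (SE 0.18, adjusted p = 0.0475) and was at 0.09 (SE 0.17) at 9-14d. The Cul1 call lies close to the threshold, and it was lost when the adjustment ran over the 3 comparisons together. Cul5 fell at 9-14d by 0.40 (SE 0.09, adjusted p = 0.00074), from -0.25 (adjusted p = 0.0544) at 5-8d. Cul2, Cul3 and Cul9, the last a large p53-binding cullin, passed at no duration. Cul3 was at -0.03, -0.01 and -0.28, and Cul2 at -0.03, 0.32 and -0.02. At 0.25-4d 0 of 7 cullins passed in limma, and 0 had an unadjusted p below 0.05.

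Among receptors tied to the cell cycle and growth control, 7 genes of a list of 10 were measured, and 2 rose at 5-8d, 3 at 9-14d and none fell, where 14.9% and 17.3% of all probe sets rose. Fbxo4, a receptor described for cyclin D1 and for the telomere protein TRF1, showed the largest rise of all 61 probe sets (chromosome 2, 53872113 to 53884308, minus strand, RGSC 3.4). Its log2 change was 0.42 (SE 0.24) at 0.25-4d, 1.12 (SE 0.30, adjusted p = 0.00651) at 5-8d and 0.89 (SE 0.27, adjusted p = 0.0124) at 9-14d, that is 2.17-fold and 1.86-fold. It also had the widest spread between rats, so its interval at 5-8d ran from 0.50 to 1.74. Fbxw8, which works with Cul7 and binds IRS1, rose by 0.51 (SE 0.15, adjusted p = 0.0103) and 0.41 (SE 0.13, adjusted p = 0.0173). Fbxo18, the helicase Fbh1 that acts at stalled replication forks, was at -0.28 (SE 0.11) at 0.25-4d, 0.12 at 5-8d and rose by 0.36 (SE 0.12, adjusted p = 0.0245) at 9-14d. Fbxo5 (Emi1, an inhibitor of the anaphase-promoting complex), Fbxo7 (a partner of the proteasome regulator PI31), Fbxl12 and Fbxw11 (β-TrCP2) passed at no duration. Fbxo7, with a wide spread, was at 0.35 (SE 0.19), 0.58 (SE 0.24, adjusted p = 0.0777) and 0.41 (SE 0.22). Of 7 markers of dividing cells, 0 passed against control at any duration, with 0, 0 and 1 at an unadjusted p below 0.05. Between 9-14d and 0.25-4d 2 of the 7 were higher, all 7 lay above 0 and their median difference was 0.26, and their part in the differences of these genes was not tested.

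The RefSeq sequence (GRCr8) of the 250 bases before the start of Fbxo4 and Cul4b, the members that rose most, is shown with 4 motifs in capitals, on either strand: the GC box spelled GGGCGGG, the box named for its letters CCAAT, the core that FoxO factors bind, searched as TGTTTAC, and the muscle E-box, searched as CAGCTG. Fbxo4 (chr2:54915389-54915638, minus strand) holds none of these letters, and Cul4b (chrX:122192300-122192549, minus strand) holds 2 CCAAT boxes.
Fbxo4: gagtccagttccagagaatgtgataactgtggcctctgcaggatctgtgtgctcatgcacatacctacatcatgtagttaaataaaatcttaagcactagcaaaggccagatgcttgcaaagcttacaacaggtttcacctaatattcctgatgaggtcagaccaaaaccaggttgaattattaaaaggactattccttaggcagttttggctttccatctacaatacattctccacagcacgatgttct
Cul4b: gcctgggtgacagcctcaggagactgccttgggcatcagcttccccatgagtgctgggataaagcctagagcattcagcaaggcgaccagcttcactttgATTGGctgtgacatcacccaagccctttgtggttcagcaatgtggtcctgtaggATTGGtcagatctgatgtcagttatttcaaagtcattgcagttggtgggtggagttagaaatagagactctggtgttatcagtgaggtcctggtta

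Fbxl4 and Fbxo9, with roles at the mitochondrion and in growth signalling, fell most. Fbxl4, whose protein sits at the mitochondrion and whose loss in people causes mitochondrial DNA depletion, went from 0.52 (SE 0.20, adjusted p = 0.153) at 0.25-4d to -0.94 (SE 0.25, adjusted p = 0.00571) at 5-8d and -0.88 (SE 0.23, adjusted p = 0.00351) at 9-14d (chromosome 5, 37156877 to 37230225, plus strand, RGSC 3.4). The value at 0.25-4d did not pass, and the falls at the later durations were 1.92-fold and 1.84-fold. Fbxo9, a receptor described for regulators of mTOR signalling, was at 0.07 (SE 0.14) at 0.25-4d and fell by 0.94 (SE 0.17, adjusted p = 0.000151) at 5-8d and by 0.97 (SE 0.16, adjusted p = 1.83e-05) at 9-14d, 1.92-fold and 1.96-fold (chromosome 8, 83056071 to 83081992, minus strand). Fbxo9 did not pass against control at 0.25-4d, and its values at 5-8d and 9-14d were nearly the same. Fbxl5, the iron sensor that removes iron regulatory proteins, gave 0.01, -0.10 and -0.17 and passed at no duration.

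The same 250 bases are given for Fbxo9 and Fbxl4, the members that fell most, with the same motifs in capitals. Fbxo9 (chr8:87863941-87864190, minus strand, GRCr8) holds 1 CCAAT box and Fbxl4 (chr5:40752271-40752520, plus strand, GRCr8) holds 2 GC boxes, so neither the pair that rose nor the pair that fell shares a single set of these letters.
Fbxo9: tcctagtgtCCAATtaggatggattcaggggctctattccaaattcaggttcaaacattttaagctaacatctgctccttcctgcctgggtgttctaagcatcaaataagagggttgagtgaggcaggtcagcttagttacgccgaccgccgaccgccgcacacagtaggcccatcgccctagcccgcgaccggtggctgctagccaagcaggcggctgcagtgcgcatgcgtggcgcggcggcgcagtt
Fbxl4: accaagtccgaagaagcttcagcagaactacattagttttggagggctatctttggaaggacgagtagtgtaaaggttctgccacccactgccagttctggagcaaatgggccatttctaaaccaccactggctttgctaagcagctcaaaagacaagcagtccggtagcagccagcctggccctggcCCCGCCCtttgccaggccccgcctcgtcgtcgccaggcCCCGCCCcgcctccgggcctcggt

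Of the 60 genes, 51 matched the table of RefSeq promoters. A GC box was present in 17 of the 51 genes, or 33.3%, against 20.95% of 33469 promoter windows of all genes, and a CCAAT box in 27.5% against 34.0%. An E-box was present in 3 genes (Fbxl17, Fbxl7 and Fbxw17), or 5.88%, against 11.97%, and the FoxO core in 0 of 51 against 3.21%. These are matches of letters in windows of 250 bases on both strands and are given as a description.

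Of 3 receptors of muscle fibres, 1 passed against control at 0.25-4d and 0 later. Of all probe sets 3.54%, 26.2% and 35.5% passed at the 3 durations. Against 0.25-4d, 2 of the receptors were lower at 5-8d and 2 at 9-14d, beside 7.64% and 17.4% of all probe sets. Fbxl22, a protein of the sarcomeric Z-disc, rose at 0.25-4d by 0.25 (SE 0.06, adjusted p = 0.0264) and was at 0.04 and -0.08 later. It passed on a small change because it had the smallest spread of all members. Fbxo40, a muscle-specific receptor for IRS1, was at 0.15 (SE 0.20), -0.61 (SE 0.25, adjusted p = 0.0733) and -0.37 (SE 0.23) and passed at no duration. Fbxo21 gave 0.10, -0.17 and -0.06 and did not pass. Of 8 markers of muscle fibres 0, 3 and 4 fell at the 3 durations, with medians of -0.05, -0.35 and -0.32. Against 0.25-4d 3 of them were lower at 5-8d (median -0.30) and 5 at 9-14d (median -0.23), the comparisons in which Fbxo40 and Fbxl22 passed, and their part in the values of these genes was not tested.

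Fbxo2, Fbxo6, Fbxo17 and Fbxo44 are related F-box proteins, of which Fbxo2 and Fbxo6 bind sugars on misfolded glycoproteins and Fbxo44 has been described as lacking sugar binding. Of these 4 genes 1 rose at 5-8d, beside 14.9% of all probe sets, and 2 fell at 9-14d, beside 18.2%. On chromosome 5 (RGSC 3.4) the probe sets of Fbxo6 (165222858 to 165226423, minus strand), Fbxo44 (165230213 to 165237308, minus strand) and Fbxo2 (165239080 to 165244509, plus strand) span 21652 bases. Fbxo44 was at -0.03 (SE 0.08), -0.27 (SE 0.10, adjusted p = 0.0524) and -0.61 (SE 0.09, adjusted p = 9.12e-06), a 1.53-fold fall at 9-14d with the smallest adjusted p of the set at that duration. Fbxo2 was at -0.02 (SE 0.09) and 0.01 (SE 0.12) and fell at 9-14d by 0.36 (SE 0.11, adjusted p = 0.0118). Fbxo6 instead rose at 5-8d by 0.44 (SE 0.16, adjusted p = 0.0413) and was at 0.02 (SE 0.14) at 9-14d. Fbxo17, a related gene on chromosome 1, gave -0.06, 0.21 and 0.38 (SE 0.18, adjusted p = 0.0951) and did not pass. Fbxo44 and Fbxo2, which both fell at 9-14d, point away from each other.

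The start sites in the RefSeq promoter table (GRCr8) lie 580 bases apart, and both windows shown lie in the interval between them. The annotated ends of the genes, over all transcripts, come within 151 bases of each other, so the windows are not all intergenic. Fbxo44 (chr5:163875500-163875749, minus strand) holds 2 GC boxes, in capitals, and Fbxo2 (chr5:163875829-163876078, plus strand) holds none of the 4 motifs.
Fbxo44: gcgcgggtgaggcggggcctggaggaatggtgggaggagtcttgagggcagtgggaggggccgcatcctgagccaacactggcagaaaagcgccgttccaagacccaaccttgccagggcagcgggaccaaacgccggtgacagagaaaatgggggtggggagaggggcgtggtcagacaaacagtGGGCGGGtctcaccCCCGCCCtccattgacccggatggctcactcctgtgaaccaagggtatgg
Fbxo2: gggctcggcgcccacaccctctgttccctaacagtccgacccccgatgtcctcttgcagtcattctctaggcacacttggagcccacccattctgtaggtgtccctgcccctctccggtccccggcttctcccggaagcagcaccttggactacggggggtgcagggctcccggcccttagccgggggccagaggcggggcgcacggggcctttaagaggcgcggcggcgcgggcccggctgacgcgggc

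Further members fell in smaller steps. Fbxl17, a receptor that controls the pairing of BTB proteins, fell by 0.64 (SE 0.14, adjusted p = 0.00115) at 5-8d and by 0.44 (SE 0.13, adjusted p = 0.0083) at 9-14d. Fbxo3 fell by 0.44 (SE 0.14, adjusted p = 0.0235) and 0.47 (SE 0.13, adjusted p = 0.00626). Its described substrate Fbxl2, itself an F-box protein, was at -0.35 (SE 0.11, adjusted p = 0.065), -0.23 (SE 0.13) and -0.35 (SE 0.12, adjusted p = 0.0273), and passed at 9-14d. With adjustment over the 3 comparisons together Fbxl2 also passed at 0.25-4d. Fbxo8, described to act on the small GTPase Arf6, fell by 0.37 (SE 0.12, adjusted p = 0.0279) and 0.50 (SE 0.11, adjusted p = 0.000915). Fbxl16 fell at 9-14d by 0.51 (SE 0.14, adjusted p = 0.0046) and Fbxl7, described for Aurora A, by 0.37 (SE 0.13, adjusted p = 0.0317). The calls for Fbxl2 and Fbxl7 at 9-14d and for Fbxo8 at 5-8d were lost after centring.

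Fbxl13 had a pair of probe sets, both listed with Lrrc17, a gene on the opposite strand within its span. The one on the minus strand fell at 5-8d by 0.50 (SE 0.15, adjusted p = 0.0123), but 24 of its 24 probes match Lrrc17 transcripts and 3 match Fbxl13, so it measures mainly the neighbour and not an F-box gene. In the other probe set 27 of 33 probes match Fbxl13 and 1 matches Lrrc17, and it gave -0.05, -0.13 and -0.18 and did not pass. Leaving out the probe sets with several symbols, the count at 5-8d was 13.

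Among genes of little known function, the rises were spread over the durations. Fbxo34 rose by 0.44 (SE 0.10, adjusted p = 0.0127) at 0.25-4d and 0.44 (SE 0.13, adjusted p = 0.0124) at 5-8d, and was at 0.28 (SE 0.12, adjusted p = 0.0641) at 9-14d. Fbxo48 was at -0.10 (SE 0.15), rose by 0.72 (SE 0.19, adjusted p = 0.00605) at 5-8d and was at 0.38 (SE 0.17, adjusted p = 0.0912) at 9-14d. Fbxw9 rose at 5-8d by 0.48 (SE 0.14, adjusted p = 0.0101). Fbxw17 was at 0.07 (SE 0.15) and 0.34 (SE 0.20) and rose at 9-14d by 0.68 (SE 0.18, adjusted p = 0.00355). Fbxo15, known as a marker of embryonic stem cells, was at 0.16 (SE 0.14) at 5-8d and rose at 9-14d by 0.36 (SE 0.12, adjusted p = 0.0243). Fbxo33, described for the RNA-binding protein YB-1, was at 0.26 (SE 0.12, adjusted p = 0.111) at 5-8d and rose at 9-14d by 0.32 (SE 0.11, adjusted p = 0.0219). Between 9-14d and 5-8d Fbxo15 differed by 0.20 (SE 0.13, adjusted p = 0.539) and Fbxo33 by 0.06 (SE 0.12, adjusted p = 0.875), and neither difference passed.

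Several of these late calls came at the duration at which markers of other cells moved. At 9-14d 9 of 10 macrophage markers rose, with a median log2 change of 1.22 (range 0.68 to 1.80), whereas 0 of 10 passed at 5-8d and 1 at 0.25-4d. Fibroblast markers fell, 4 of 6 at 5-8d (median -1.65) and 2 of 6 at 9-14d (median -0.55), and 3 of 4 endothelial markers fell at both. Of 6 probe sets for 5 Schwann cell markers 1 rose at 9-14d, a probe set of Mbp (0.48, SE 0.13). The other Mbp probe set, at 0.29 (SE 0.41), did not pass. Of 4 fat cell markers 0 passed at any duration, with 2, 0 and 0 at an unadjusted p below 0.05. The part of these cells in the changes of Fbxw17, Fbxo15, Fbxo18, Fbxo33, Fbxo44, Fbxo2, Fbxl16 and Cul5 at 9-14d was not tested.

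**Figure D2:**
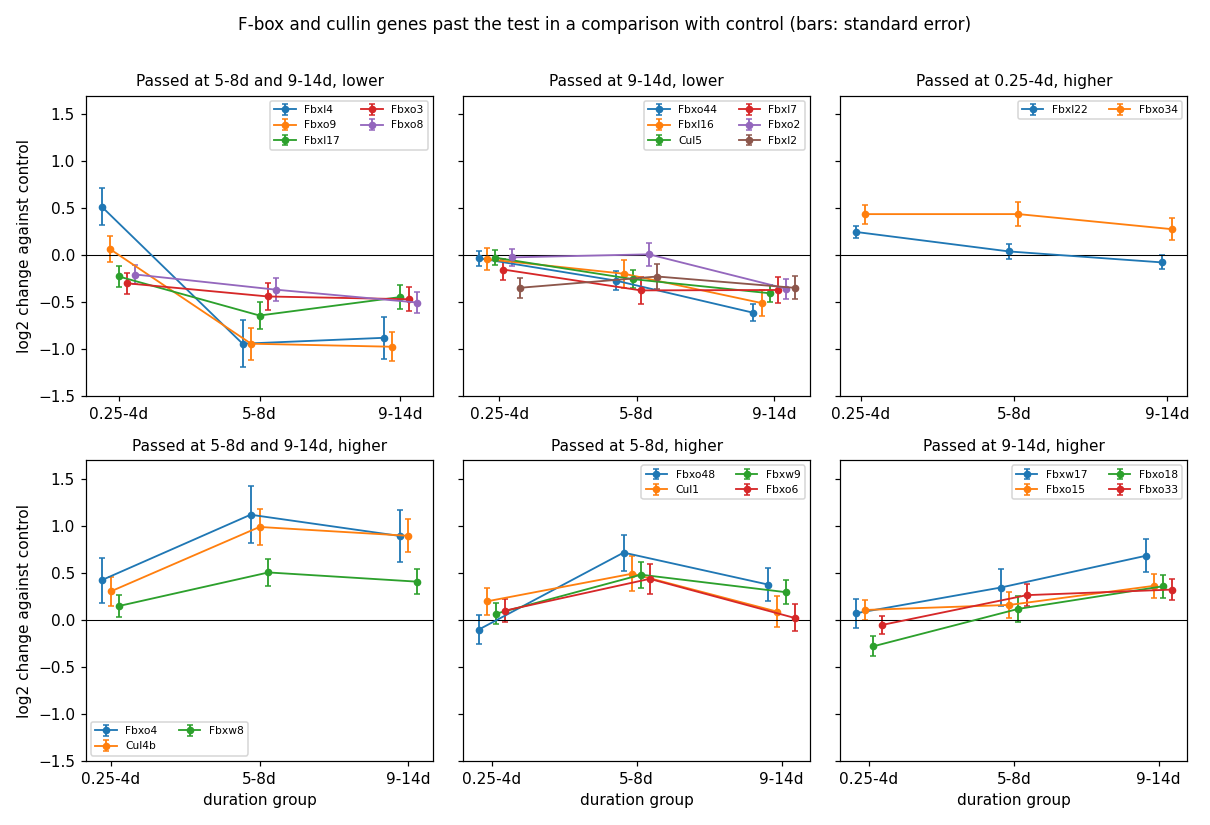
Log2 change against control (y axis) at the 3 durations (x axis) of the 24 genes that passed in at least 1 comparison with control, without the Lrrc17 probe set listed as Fbxl13, in 6 panels by the durations at which they passed (Fbxo34, in the panel of 0.25-4d, also passed at 5-8d), which does not show that the durations differed; points are group differences and bars the SE. Fbxl4 and Fbxo9 drop between 0.25-4d and 5-8d and stay low, while Fbxo4 and Cul4b stay near their value of 5-8d.

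The durations were then set against one another, which asks between which groups a gene differed. Each group pools rats of several durations, from 6 hours to 4 days in the first, so the day of a change cannot be read from it. The comparisons with control share the same 5 control rats, and comparing the durations directly does not use the mean of the controls, though their spread enters the SD of the model. Between 5-8d and 0.25-4d 17 of 61 probe sets differed, 10 higher and 7 lower at 5-8d, or 27.9% beside 21.3% of all probe sets (13.6% higher and 7.64% lower). After centring the split was 12 higher and 4 lower. Between 9-14d and 0.25-4d 22 differed, 10 higher and 12 lower, or 36.1% beside 35.5% (18.1% higher and 17.4% lower). After centring 15 were higher and 7 lower. Between 9-14d and 5-8d 0 of 61 passed in limma, beside 0.408% of all probe sets, with 8 at an unadjusted p below 0.05. With 4 and 6 rats this comparison is the least precise of the 3, and it does not show that levels were equal.

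The difference between 0.25-4d and 5-8d was largest for Fbxl4, which was lower at 5-8d by 1.46 (SE 0.21, adjusted p = 9.51e-06, 95% interval -1.90 to -1.02), or 2.75-fold. Fbxo9 was lower by 1.01 (SE 0.15, adjusted p = 8.9e-06). These were the only members with a 2-fold difference between durations, 2 of 61 beside 2.68% of all probe sets at 5-8d and beside 3.32% at 9-14d. From 5-8d to 9-14d they moved by 0.06 (interval -0.43 to 0.56) and -0.03 (interval -0.37 to 0.31). Fbxo40 was lower at 5-8d than at 0.25-4d by 0.76 (SE 0.21, adjusted p = 0.00967), although it passed in no comparison with control. Fbxo48 was higher by 0.82 (SE 0.16, adjusted p = 0.000465) and Cul4b by 0.69 (SE 0.16, adjusted p = 0.00282). Fbxo4 was higher by 0.70 (SE 0.26, adjusted p = 0.054), which did not pass and did pass after centring.

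At 9-14d the same direct comparison with 0.25-4d gave the Fbxo18 helicase its clearest difference, 0.64 (SE 0.10, adjusted p = 1.23e-05), beside -0.28 for 0.25-4d and 0.36 for 9-14d against control. Fbxo44 was lower by 0.58 (SE 0.08, adjusted p = 7.15e-07), Fbxl16 by 0.47 (SE 0.11, adjusted p = 0.00167) and Cul5 by 0.38 (SE 0.07, adjusted p = 0.000149). Fbxl22, which had risen early, was lower by 0.32 (SE 0.06, adjusted p = 0.000118). Fbxw17 was higher by 0.61 (SE 0.14, adjusted p = 0.00157) and Fbxo17 by 0.44 (SE 0.15, adjusted p = 0.0204). Fbxl20, known from synapses, where it acts on RIM1, gave 0.27 (SE 0.14), -0.13 and 0.03 against control and did not pass between durations either.

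In all 10 members differed from 0.25-4d at both later durations, 5 of 61 higher (Cul4b, Fbxo18, Fbxo22, Fbxo33 and Fbxo48), beside 11.1% of all probe sets, and 5 lower (Cul5, Fbxl22, Fbxl4, Fbxo40 and Fbxo9), beside 5.55%. After centring 7 were higher, with Fbxw8 and Fbxw9, and 2 lower, Fbxl4 and Fbxo9. Of the 61 probe sets 11 passed between durations while passing in no comparison with control, beside 10.2% of all probe sets. Besides Fbxo40 and Fbxo17 they included Cul2, Fbxo38, Fbxw2 and Fbxo22, which were higher at 5-8d, and Fbxo5, Fbxo23, Fbxo42 and Fbxw12, which differed at 9-14d. Besides Fbxo40, these differences were at most 0.44 in size, as for Fbxo17, and the smallest was that of Fbxw12 (-0.22).

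**Figure D3:**
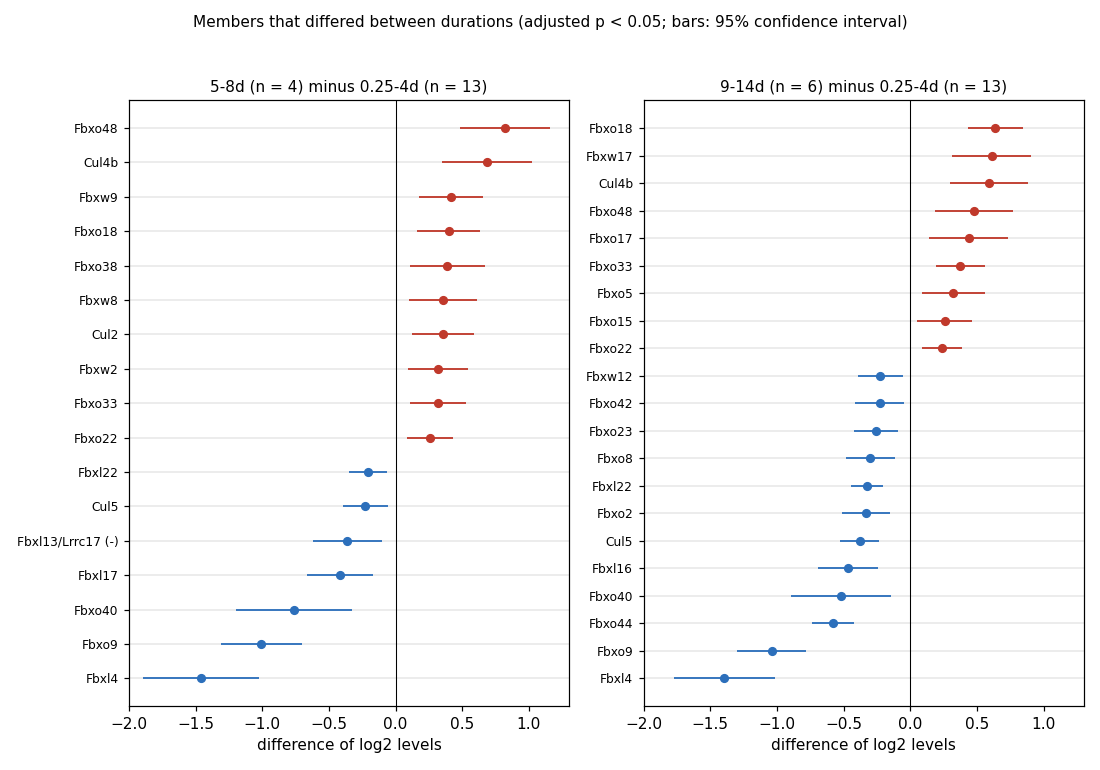
Difference of log2 levels (x axis) between 5-8d and 0.25-4d (left) and between 9-14d and 0.25-4d (right) for 17 and 21 probe sets that passed, with 95% confidence intervals; red is higher and blue lower at the later duration. Fbxl4 and Fbxo9 lie at -1.46 and -1.01 on the left and at -1.40 and -1.04 on the right, apart from the other members.

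The F-box genes left out of the set had larger changes than nearly all members. Fbxo32 (atrogin-1) was at 0.94 (SE 0.14, adjusted p = 0.000111), 1.10 (SE 0.17, adjusted p = 2.57e-05) and 0.82 (SE 0.16, adjusted p = 0.00019). Fbxo30, known as MUSA1 from denervation atrophy, was at 0.71 (SE 0.28, adjusted p = 0.169), 1.47 (SE 0.35, adjusted p = 0.00244) and 1.71 (SE 0.32, adjusted p = 0.000144). None of the 61 members had a higher log2 change than Fbxo30 at any duration, and 0, 1 (Fbxo4) and 2 (Cul4b and Fbxo4) had a higher one than Fbxo32. Atrogin-1 passed in the first days, when 2 of the members, Fbxl22 and Fbxo34, did.

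The other parts of the ligase system were read from lists of genes by function, whose counts stand beside 26.2% of all probe sets passing at 5-8d (14.9% up and 11.4% down) and 35.5% at 9-14d (17.3% up and 18.2% down). Of 8 probe sets of SCF partners none passed at 0.25-4d (1 at an unadjusted p below 0.05) and 1 rose at either later duration. These were Ube2d3, a ubiquitin-conjugating enzyme, by 0.24 (SE 0.08, adjusted p = 0.0168) at 5-8d and Skp1 by 0.34 (SE 0.11, adjusted p = 0.0143) at 9-14d. Against 0.25-4d 2 of the 8 were higher and 2 lower at 5-8d, beside 13.6% and 7.64% of all probe sets. At 9-14d 3 were higher and 2 lower, beside 18.1% and 17.4%. Rbx1 was higher by 0.49 (SE 0.12, adjusted p = 0.00303) and 0.43 (SE 0.10, adjusted p = 0.00178). The lower ones were the Cks1b probe sets, both listed with a similar locus, by 0.99 and 0.87 at 5-8d and 0.69 and 0.63 at 9-14d. Of 6 other F-box genes, Ccnf (cyclin F) rose at 5-8d and 9-14d, and Kdm2b, a histone demethylase with an F-box, fell at all 3 durations, by 0.71, 0.65 and 0.52. Of 15 probe sets for neddylation and Cand1, 4 rose and 2 fell at 5-8d and 3 rose and 3 fell at 9-14d. Among them Cand1, the exchange factor, rose by 0.64 (SE 0.11, adjusted p = 5.77e-05) and 0.82 (SE 0.10, adjusted p = 2.08e-07), and Uba3, part of the enzyme that activates Nedd8, by 0.41 and 0.36. Dcun1d2 fell by 0.72 (SE 0.15, adjusted p = 0.000435) and 0.79 (SE 0.13, adjusted p = 3.18e-05), and Ube2f by 0.38 and 0.49. Cand2 was at 0.17 at 5-8d and fell by 0.34 (SE 0.13, adjusted p = 0.0469) at 9-14d. Of 10 probe sets of the COP9 signalosome 4 rose at 5-8d and 3 at 9-14d, none fell, and the medians were 0.35 and 0.18, beside -0.04 and -0.07 over all probe sets. They stand for 8 genes, as Cops3 and Cops7b are counted more than once. The Cops3 probe sets went apart at 5-8d, at 0.40 (SE 0.19) and -0.28 (SE 0.15), and neither passed. Against 0.25-4d 5 of the 10 were higher at 5-8d and 1 was lower, the latter of Cops3 (-0.38, SE 0.12, adjusted p = 0.0273).

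The substrate receptors and adaptors of the other cullins included changes larger than any of the members. Of 47 probe sets for 39 genes, 13 rose and 10 fell at 5-8d and 11 rose and 12 fell at 9-14d, beside the same shares, and 6 and 7 passed with a 2-fold change, beside 5.21% and 5.12% of all probe sets. Of these probe sets 5 list Tceb1 (elongin C) with a near-identical locus and cannot be counted as separate genes. Without them the counts were 9 up and 10 down and 6 up and 12 down. Klhl31 still counts with both of its probe sets among the falls and the 2-fold changes. These are thus counts of probe sets and not of genes. Each rise or fall named here passed. Asb11, a SOCS-box protein of muscle, fell most, by 2.19 (SE 0.24) and 2.11 (SE 0.22), and Asb15 fell by 1.49 (SE 0.30) and 1.17 (SE 0.27). Asb2, which targets filamins, was at -0.25 (SE 0.26) at 5-8d and fell by 1.05 (SE 0.23) at 9-14d. Socs2, an inhibitor of growth hormone signalling, fell at all 3 durations, by 1.38, 1.79 and 1.08. For Klhl31, a Kelch protein of muscle, one probe set fell by 1.99 (SE 0.30) and 1.60 (SE 0.27) and the other by 1.81 (SE 0.28) and 1.62 (SE 0.26). Kbtbd5 (Klhl40), a Kelch protein that stabilises thin filament proteins, rose instead, by 1.50 (SE 0.25) and 1.27 (SE 0.23). Their scaffolds Cul3 and Cul5 changed by at most 0.28 and 0.40.

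**Figure D4:**
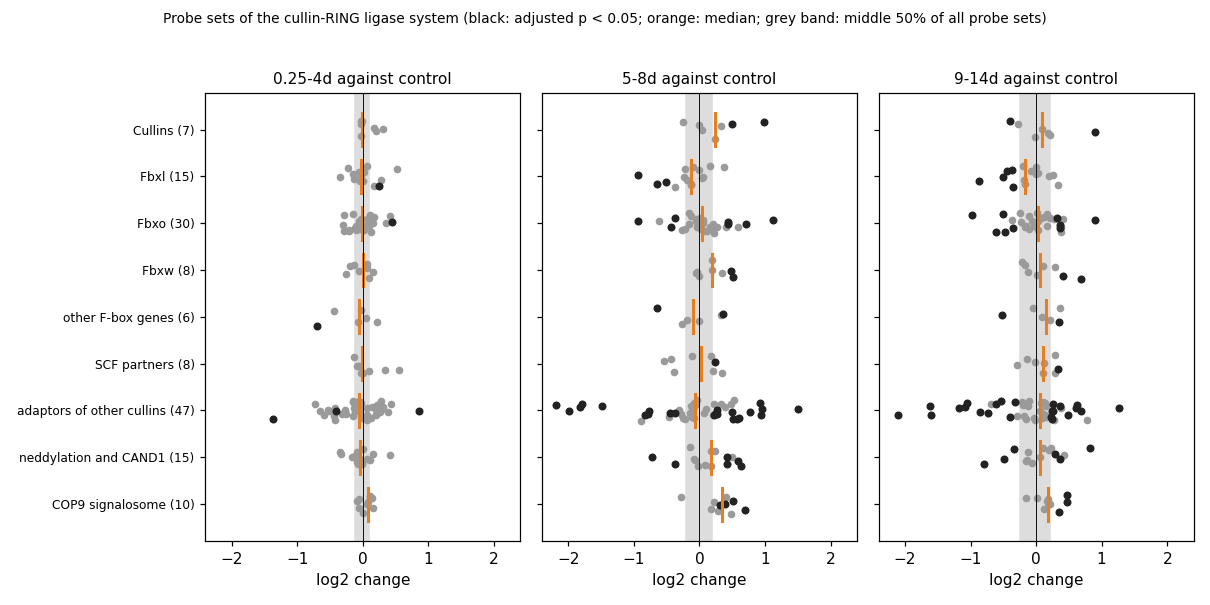
Log2 change against control (x axis), with a panel for each duration, for the probe sets of each family and list (rows, number of probe sets drawn in brackets); black points passed at an adjusted p below 0.05, grey points did not, orange lines are medians and the grey band holds the middle 50% of all probe sets. The 4 families stay between -0.97 (Fbxo9) and 1.12 (Fbxo4), and the points farthest from 0 belong to adaptors of other cullins such as Asb11 (-2.19) and Klhl31 (-1.99).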

How the data were processed

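The authors normalised the 28 arrays by RMA and fitted 1 linear model with 3 comparisons against control in limma, with Benjamini-Hochberg adjustment. The deposited table holds a log2 change and an adjusted p-value per comparison and probe set, so these authors' columns are the data used here. Its first line calls the log2 values lowess normalised ratios, whereas the methods name RMA, and GEO's processing notes name MAS5 and RMA. Annotation follows RGSC 3.4. Array signals are not used here and precision rests on how many rats each group has.

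From these columns the adjustment was undone and 28.26 degrees of freedom (24 residual, 4.26 prior) were recovered, which gave the within-group SD, SEs, 95% intervals and the comparisons between durations, adjusted over all 26208 probe sets. Recomputing the authors' adjusted p-values moved none by more than 0.00604 (log10), and the number of changed calls was 0. The steps were tested on simulated data with limma 3.58.1 (R 4.3.3) and run in scipy 1.17.1, numpy 2.4.6 and pandas 2.3.3, with figures from matplotlib 3.10.9.

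The members and lists were chosen with earlier results of these data known. Named were members passing with a 2-fold change, the 6 that rose and 6 that fell most per comparison among those passing, all that differed between durations, all cullins, members of role lists, and list genes passing with a 2-fold change, and further genes that passed were named after their values were seen. Role list genes without a matching probe set (Fbxl21, Fbxo31, Fbxw7, Fbxl14, Fbxo27, Fbxo45, Fbxo41 and Fbxo25) were not analysed here. The values of 1 member are not reported here, though it is in the counts and, with its family, in the medians. Alternatives were a 2-fold minimum, an adjusted p below 0.01, adjustment over the 3 comparisons together or over the 20596 probe sets with a symbol, centring on the median, leaving out probe sets with several symbols, and 1 probe set per gene.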

Additional observations from a re-analysis of the deposited data

Results flagged for a closer look

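These results were singled out because the change of a probe set differed between durations in a direct test of the difference, in the recovered limma model with an adjusted p below 0.05. There were 39 such differences, 17 between 5-8d and 0.25-4d and 22 between 9-14d and 0.25-4d. Of these, 38 are given here as log2 differences of the later duration from 0.25-4d.

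At 5-8d the higher members were Fbxo48 (0.82), Cul4b (0.69), Fbxw9 (0.41), Fbxo18 (0.40), Fbxo38 (0.39), Fbxw8 (0.36), Cul2 (0.35), Fbxo33 (0.32), Fbxw2 (0.32) and Fbxo22 (0.26). The lower ones were Fbxl4 (-1.46), Fbxo9 (-1.01), Fbxo40 (-0.76), Fbxl17 (-0.42), the Lrrc17 probe set listed as Fbxl13 (-0.36), Cul5 (-0.23) and Fbxl22 (-0.21).

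At 9-14d the higher members given were Fbxo18 (0.64), Fbxw17 (0.61), Cul4b (0.59), Fbxo48 (0.48), Fbxo17 (0.44), Fbxo33 (0.38), Fbxo5 (0.32), Fbxo15 (0.26) and Fbxo22 (0.24). The lower ones were Fbxl4 (-1.40), Fbxo9 (-1.04), Fbxo44 (-0.58), Fbxo40 (-0.52), Fbxl16 (-0.47), Cul5 (-0.38), Fbxo2 (-0.33), Fbxl22 (-0.32), Fbxo8 (-0.30), Fbxo23 (-0.26), Fbxo42 (-0.23) and Fbxw12 (-0.22).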

How the results depend on the processing

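The counts depended most on the threshold. With a 2-fold minimum the counts against control, from the shortest to the longest duration, were 0, 1 and 0, and against 0.25-4d they were 2 at 5-8d and 2 at 9-14d. With an adjusted p below 0.01 they were 0, 6 and 10 against control, and 5 and 11 against 0.25-4d. No probe set that passed under any of these settings changed sign. Only centring, with its shift of at most 0.07, could change a sign, so this is no test of the calls. The balance of calls turned with centring, from 7 up and 11 down to 15 up and 9 down at 9-14d, and from 10 higher and 12 lower to 15 higher and 7 lower between 9-14d and 0.25-4d. These centred counts have no centred share of all probe sets beside them and do not show a lean of the set. Centring shifted the comparisons by at most 0.07 and moved the count at 9-14d from 18 to 24. It took away the calls of Fbxl2 and Fbxl7 and added 8, among them Fbxo48, Fbxw9, Fbxo34 and Cul4a. Of 96 values of named members, 68 kept their side of the threshold after centring, 17 newly passed and 11 no longer passed. Between 9-14d and 0.25-4d centring ended 5 calls (Fbxo8, Fbxo23, Fbxo40, Fbxo42 and Fbxw12) and added 5, and between 5-8d and 0.25-4d it ended 3 (Cul5, Fbxl22 and the Lrrc17 probe set) and added 2. With adjustment over probe sets with a symbol the counts were 16 at 5-8d, 19 at 9-14d and 21 between 5-8d and 0.25-4d. Leaving out single rats was not run, because the table used here holds comparisons and not arrays. No paired analysis was possible because the groups share no replicate numbers and the columns are differences between groups. The 4 rats at 5-8d set the widest errors.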
